A study of Mus musculus with 6 samples.

Results

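Histone variants and polyadenylated histone genes were compared between cultured mouse B cells in which Prmt5 had been deleted and control cells, which the sample characteristics give the same genotype. The 10 genes were taken from the deposited expression table by name: H2afx, H2afz, H2afv, H2afy, H3f3a, H3f3b, H1f0, H1fx, Hist1h1c and Hist1h2bc. Each was found in a row of its own among the 21307 rows of the table, with a value above 0 in both conditions, and all 10 were among the 10856 rows compared. They were read in 2 sets, the variants linked to proliferation (H2afx, H2afz, H2afv) and the genes also used by non-dividing cells (the other 7).

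Every library came from bone marrow B cells of 6 to 8-week-old mice on a C57BL/6 x 129S1/SvlmJ background with the genotype E-mu-myc;Prmt5F/FCreER, grown with IL-7 at 5 ng/µl. The 4-OHT condition (3 libraries) was treated with 50 nM 4-hydroxytamoxifen for 24 h, which activates the CreER recombinase and removes the floxed Prmt5 alleles, and was then cultured for 5 more days. The EtOH condition (3 libraries) received ethanol and the same culture, so by the characteristics it also carried the Eµ-myc transgene, which drives MYC in B-lineage cells, and the intact floxed alleles. The labels conflict: the titles read PT for 4-OHT and WT for EtOH, and the series design likewise sets pre-tumoral against wild-type animals, while the sample characteristics and the table name the treatments, which are used here. Under the titles, EtOH would stand for wild-type cells, and this was not settled here. The labels name neither the promoter of CreER nor whether the libraries came from separate mice.

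Chromosomes are packed on histone octamers, and most histone protein is made in S phase from clustered genes whose messenger RNA ends in a stem-loop and carries no poly(A) tail. Variant histones are largely made outside this programme from polyadenylated messages: H2A.Z and H2A.X serve transcription and DNA repair, macroH2A marks repressed chromatin, and H3.3 is deposited throughout the cell cycle. Linker histones of the H1 family bind the DNA between nucleosomes, and some clustered genes, Hist1h1c and Hist1h2bc among them, also yield polyadenylated messages in cells that have left the cycle. The library kit named in the labels selects poly(A) RNA by its standard protocol, so stem-loop messages are poorly captured and the values below report mainly polyadenylated ones.

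The table gives 1 FPKM value (mapped fragments scaled to transcript length and library size) per gene and condition, so no difference here has a replicate error or a test, and none has a p-value. The depth of the libraries is unknown. Differences are given as log2 ratios of 4-OHT over EtOH after adding 1 FPKM to each value, which understates those of low genes. Folds of the members are on the same scale, so they differ slightly from the plain ratio of the FPKM beside them. A 2-fold size on this scale is used to count genes. Prmt5 stood at 5.71 FPKM in 4-OHT and at 41.6 FPKM in EtOH. The median log2 ratio of all compared rows was -0.07. B cell markers were expressed in both conditions, but markers of other marrow cells were too, and their values stand beside the results they move with.

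The histone stem-loop is shown for the 2 members in which it was found, H2afx and Hist1h1c, and for 3 clustered genes with which they are compared. It is a 16-base stretch that starts with GG, holds CTTTT and AG at fixed places and ends with CC. Only the longest protein-coding GENCODE M21 transcript of each gene (GRCm38) was searched. In these, the stem-loop was found after the coding part of H2afx and Hist1h1c but in none of the other 8 members. Both transcripts run on well past it, by 822 bases in H2afx and by 840 bases in Hist1h1c, to an AATAAA or ATTAAA signal within their last 50 bases. The sequences below are read 5′ to 3′ on the gene's strand, with the 16-base stem-loop in capitals and 5 bases on either side. They lie at chr9:44335235-44335260 (+) for H2afx, chr13:23739507-23739532 (+) for Hist1h1c, chr13:22040961-22040986 (-) for Hist1h4i, chr13:23581945-23581970 (+) for Hist1h4d and chr11:58955167-58955192 (+) for Hist3h2a, all on GRCm38.
H2afx: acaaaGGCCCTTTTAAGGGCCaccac
Hist1h1c: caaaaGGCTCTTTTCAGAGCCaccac
Hist1h4i: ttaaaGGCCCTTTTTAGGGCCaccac
Hist1h4d: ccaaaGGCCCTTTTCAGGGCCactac
Hist3h2a: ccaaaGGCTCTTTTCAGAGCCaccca
The longest annotated transcript of Hist1h2bc has 2 exons and holds no stem-loop match, so this form of the message is a spliced one. Other forms were not searched. A match describes the letters alone and does not show which end the sequenced messages had.

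The 3 proliferation-linked variants were all lower in 4-OHT, with a median log2 ratio of -0.81. H2afx (chromosome 9, 44142798 to 44144156 on mm9) encodes H2A.X, whose tail is phosphorylated around DNA breaks. It stood at 45.6 FPKM in 4-OHT and at 106.6 FPKM in EtOH, 2.31-fold lower (log2 ratio -1.21). It was the only member at least 2-fold lower, a size reached downward by 2.58% of compared rows, and 1.22% of them had a lower ratio. H2afx thus had the lowest ratio of the members. B cell markers were lower in the same comparison, in 12 of 12 genes, with a sum of 613 FPKM in 4-OHT and 1381 FPKM in EtOH, and in such bulk samples fewer cells of a type and less RNA per cell cannot be told apart.

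H2afz (chromosome 3, 137527563 to 137529886) encodes H2A.Z.1, the main form of a variant placed at promoters. It stood at 291.5 FPKM in 4-OHT and at 479 FPKM in EtOH, 1.64-fold lower (log2 ratio -0.71). H2afv (chromosome 11, 6327229 to 6344446) encodes the near-identical protein H2A.Z.2 and stood at 29.2 FPKM in 4-OHT and at 51.9 FPKM in EtOH, 1.75-fold lower (-0.81). The H2A.Z genes therefore kept nearly the same mix at a lower sum: H2afz made up 90.9% of their summed FPKM of 320.7 in 4-OHT and 90.2% of 530.9 in EtOH. Both messages were lower by similar amounts. With H2afv left out of the set the median was -0.96. For both genes, rows of similar level were lower by less: the median ratio was -0.19 for the 502 rows with means from 100 to 500 FPKM and -0.14 for the 3004 rows from 20 to 100 FPKM.

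**Figure D1:**
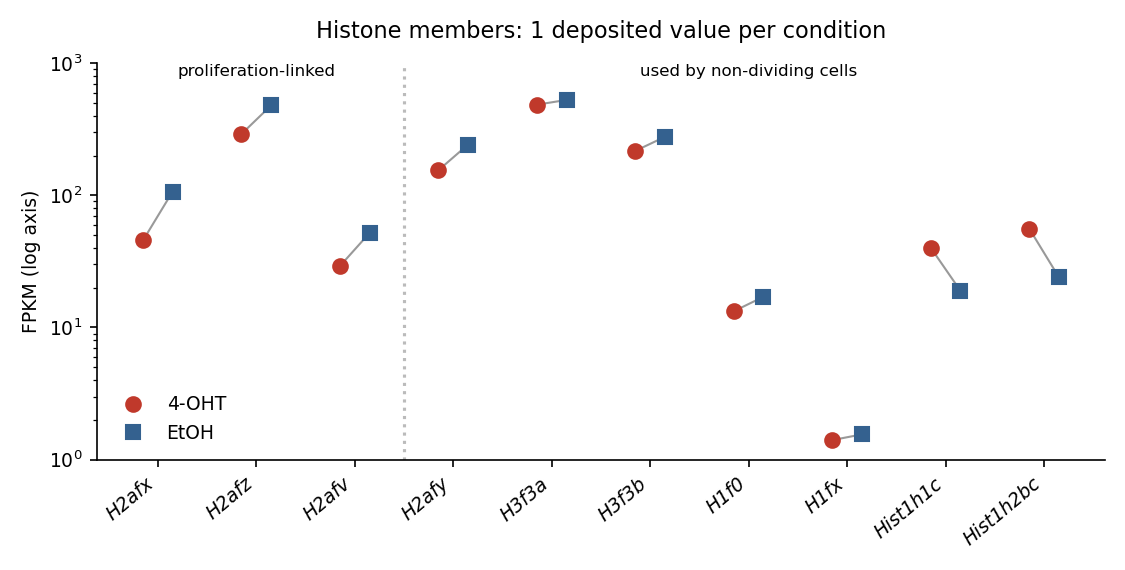
FPKM of the 10 members (log axis) in 4-OHT (circles, left) and EtOH (squares, right), with 1 deposited value per gene and condition and no error. The lines slope up to EtOH for 8 members and down for Hist1h1c and Hist1h2bc, which stood at 39.9 and 55.8 FPKM in 4-OHT.

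The 300-base promoter windows of RefSeq (GRCm38.p6, 250 bases before to 50 after the start) were searched for short motifs. The windows of H2afz (chr3:137864237-137864536, +), H2afv (chr11:6444394-6444693, -) and Hist1h1c (chr13:23738557-23738856, +) are shown with motif matches in capitals.
H2afz: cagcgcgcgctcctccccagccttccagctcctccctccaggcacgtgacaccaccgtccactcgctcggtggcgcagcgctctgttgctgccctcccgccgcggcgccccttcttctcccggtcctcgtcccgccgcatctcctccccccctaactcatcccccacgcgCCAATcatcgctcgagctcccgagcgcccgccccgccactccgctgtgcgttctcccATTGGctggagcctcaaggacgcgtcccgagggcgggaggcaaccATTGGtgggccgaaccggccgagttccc
H2afv: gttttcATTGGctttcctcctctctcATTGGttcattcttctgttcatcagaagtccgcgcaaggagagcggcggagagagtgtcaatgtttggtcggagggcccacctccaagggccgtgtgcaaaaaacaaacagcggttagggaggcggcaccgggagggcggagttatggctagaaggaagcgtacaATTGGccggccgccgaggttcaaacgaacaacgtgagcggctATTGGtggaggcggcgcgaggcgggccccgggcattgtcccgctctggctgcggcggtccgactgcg
Hist1h1c: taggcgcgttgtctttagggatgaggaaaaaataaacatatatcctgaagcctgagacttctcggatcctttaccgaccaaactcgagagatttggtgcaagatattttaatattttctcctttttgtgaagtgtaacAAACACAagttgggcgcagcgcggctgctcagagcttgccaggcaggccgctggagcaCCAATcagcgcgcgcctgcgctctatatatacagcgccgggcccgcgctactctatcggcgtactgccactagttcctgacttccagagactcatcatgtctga
The letters searched, on both strands, were CCAAT, the TATA-box letters TATAAA, the H1-box letters AAACACA, and for the E2F type any of TTTCCCGC and TTTGGCGC and TTTCGCGC, with no overlap between matches of different motifs in these windows. CCAAT (on the other strand ATTGG) occurred 3 times in the H2afz window and 4 times in the H2afv window, and 37.4% of all 32851 windows held at least 1. It was also found in H3f3b (4 matches), H3f3a and Hist1h1c, so in 5 of the 8 members with a window. AAACACA was found in Hist1h1c and H3f3a and in 7.18% of all windows. TATAAA was found in H3f3b and in 13.6% of all windows. No member window held the E2F-type letters, which 1.84% of all windows did. H2afx and Hist1h2bc were not matched in the promoter table used. CCAAT was thus present in members that were lower and in Hist1h1c, which was higher. Any link between these letters and the ratios was not tested.

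H2afy (chromosome 13, 56174983 to 56236911) encodes macroH2A1, whose large extra domain is tied to repressed chromatin and to differentiated cells. It stood at 155 FPKM in 4-OHT and at 242 FPKM in EtOH, 1.56-fold lower (log2 ratio -0.64). Its ratio lay near those of the H2A.Z genes although it was set with the genes used by non-dividing cells. The 4 H2A variant members summed to 521 FPKM in 4-OHT and to 880 FPKM in EtOH. H2afj, an H2A variant gene of the same family outside the 10, stood at 44.2 FPKM in 4-OHT and at 44.3 FPKM in EtOH, so that its share of the 5 H2A variant rows was 7.81% in 4-OHT and 4.79% in EtOH. The related macroH2A2 gene H2afy2 was low, at 1.13 FPKM in 4-OHT and 0.166 FPKM in EtOH.

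H3f3a, an H3.3 gene, was the most abundant member in both conditions, followed by H2afz and H3f3b, and was near equal between conditions. H3f3a (chromosome 1, 182732699 to 182743734) and H3f3b (chromosome 11, 115883275 to 115885818) encode the same protein from different messages. H3f3a stood at 486 FPKM in 4-OHT and at 528 FPKM in EtOH (log2 ratio -0.12), and 46.0% of compared rows had a lower ratio. H3f3b stood at 217 FPKM in 4-OHT and at 277.5 FPKM in EtOH, 1.28-fold lower (-0.35). H3f3a thus made up 69.1% of the summed H3.3 message in 4-OHT and 65.5% in EtOH. The longest run of identical bases shared by their longest transcripts was 23, whereas processed copies of H3f3a elsewhere in the genome may share its reads. Cenpa, the H3 variant of centromeres and no member, stood at 56.5 FPKM in 4-OHT and at 91.1 FPKM in EtOH (log2 ratio -0.68), lower by about as much as the H2A.Z genes.

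**Figure D2:**
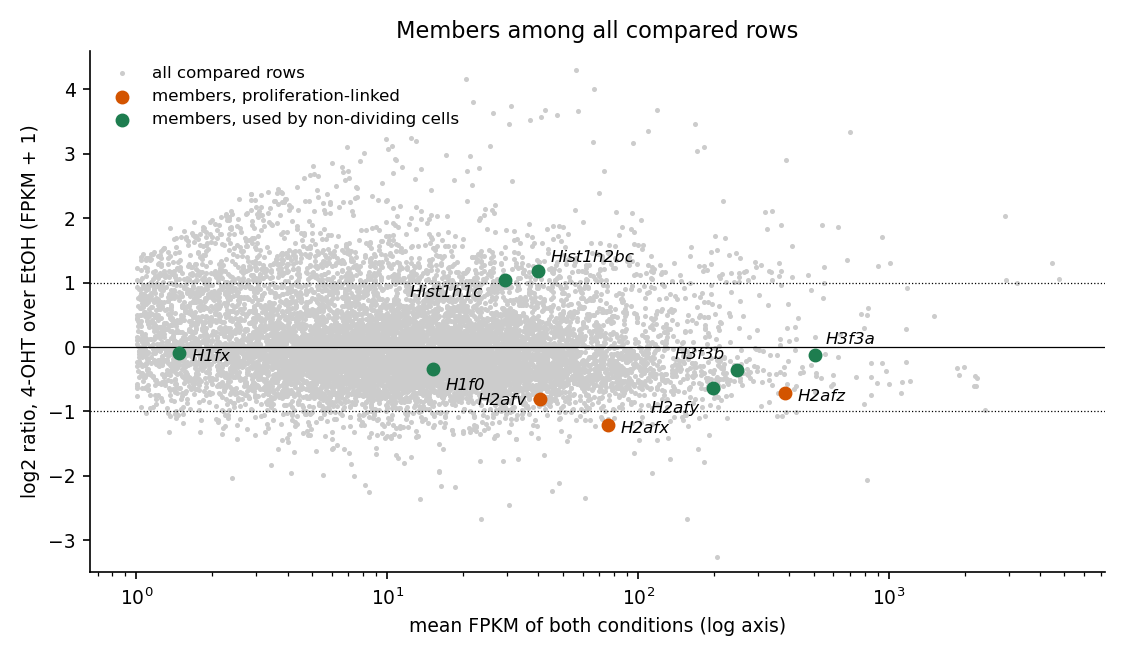
Log2 ratio of 4-OHT over EtOH on the FPKM + 1 scale against the mean FPKM of both conditions (log axis), for the 10856 compared rows (grey) and the members (colours by set); dotted lines mark 2-fold. H2afx lies below the lower line at -1.21, and Hist1h2bc and Hist1h1c lie above the upper one at 1.18 and 1.04.

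Of the 3 linker histone members, Hist1h1c was higher in 4-OHT, and H1f0 and H1fx were lower by small amounts. Hist1h1c (chromosome 13, 23830676 to 23832236) encodes H1.2, a somatic linker histone. It stood at 39.9 FPKM in 4-OHT and at 19.0 FPKM in EtOH, 2.05-fold higher (log2 ratio 1.04), a size reached upward by 10.4% of compared rows. Under median-of-ratios scaling of the conditions it was at 0.98, just under 2-fold. H1f0 (chromosome 15, 78858642 to 78860930) encodes H1.0, the linker histone known to build up in cells that stop dividing and differentiate. It stood at 13.3 FPKM in 4-OHT and at 17.1 FPKM in EtOH, 1.27-fold lower (log2 ratio -0.34). H1.0 therefore did not move with Hist1h1c. H1fx (chromosome 6, 87930415 to 87931476), for the variant H1.10, was near the 1 FPKM minimum, at 1.41 FPKM in 4-OHT and 1.55 FPKM in EtOH.

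The linker histone messages in rows of their own summed to 57.4 FPKM in 4-OHT and to 38.0 FPKM in EtOH. Hist1h1c made up 69.6% of this sum in 4-OHT and 49.8% in EtOH, and H1f0 made up 23.1% in 4-OHT and 44.9% in EtOH. The clustered genes Hist1h1a, Hist1h1b and Hist1h1d added little: Hist1h1a, the most abundant of them in 4-OHT, stood at 1.41 FPKM in 4-OHT and at 0.147 FPKM in EtOH. Hist1h1e is merged with Hist1h2be in a single row and was left out of the sum.

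**Figure D3:**
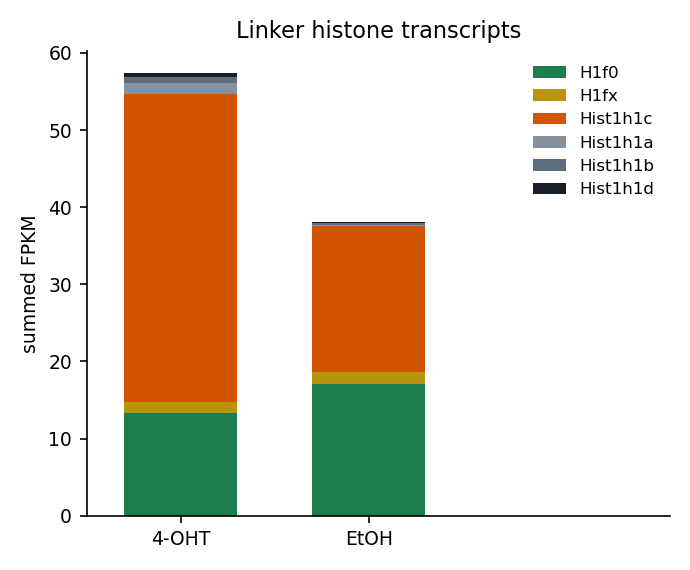
Summed FPKM of 6 linker histone genes, stacked by gene, in 4-OHT (left) and EtOH (right), with no error. The taller 4-OHT bar (57.4 against 38.0 FPKM) comes from Hist1h1c, while the H1f0 part is smaller in 4-OHT.

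Hist1h2bc, a clustered H2B gene with a spliced message in the annotation, had the highest ratio of the members. Its locus (chromosome 13, 23776068 to 23784349) spans 8282 bases. It stood at 55.8 FPKM in 4-OHT and at 24.0 FPKM in EtOH, 2.27-fold higher (log2 ratio 1.18), and 92.9% of compared rows had a lower ratio. Its transcript shares a run of 305 identical bases with Hist1h2bg, and Hist1h1c shares 149 with Hist1h1d, so reads of the coding parts may have been split between copies. Hist1h2bg itself stood at 1.58 FPKM in 4-OHT and at 0.507 FPKM in EtOH, far below Hist1h2bc in both conditions. Neutrophil markers moved in the same direction as Hist1h1c and Hist1h2bc, with a median log2 ratio of 3.14, as did macrophage markers, with a median of 1.16.

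In all, 8 of the 10 members were lower and 2 were higher in 4-OHT, where 55.1% of compared rows were lower. The proliferation-linked set was lower in 3 of 3. The set used by non-dividing cells was lower in 5 of 7, with a median of -0.12 and a range from -0.64 to 1.18. The second set thus did not move as a block: the H3.3, H1.0, H1.10 and macroH2A1 genes were on the lower side, and the clustered genes Hist1h1c and Hist1h2bc were on the higher side. Members at least 2-fold different numbered 3, against 12.9% of compared rows.

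Markers of other marrow cells were higher in the same comparison. All 12 compared neutrophil markers were at least 2-fold higher, and their summed level was 3783 FPKM in 4-OHT and 448 FPKM in EtOH. All 12 compared macrophage markers were higher, and these summed to 2340 FPKM in 4-OHT and to 959 FPKM in EtOH. Lyz2, which was not compared, is listed at 0 in 4-OHT and at 3835 FPKM in EtOH. With it the sum was 2340 FPKM in 4-OHT and 4794 FPKM in EtOH, the other way round. The authors' log2 fold change of Lyz2 is listed as 0, whereas clustered histone rows at 0 in EtOH alone are listed as infinite. Whether the Lyz2 value of 0 was measured is therefore unknown. The megakaryocyte markers (9 of 9 higher) summed to 863 FPKM in 4-OHT and 232 FPKM in EtOH. The stromal and endothelial markers (10 of 10 compared were higher) summed to 573 FPKM in 4-OHT and 49.6 FPKM in EtOH. The mast cell and basophil markers (6 of 6 compared were higher) summed to 238 FPKM in 4-OHT and 69.2 FPKM in EtOH, with Mcpt4 listed at 0 in both. Erythroid markers summed to 9.94 FPKM in 4-OHT and 2.33 FPKM in EtOH (2 of 2 compared were higher), and T and NK cell markers to 24.2 FPKM in 4-OHT and 6.19 FPKM in EtOH (5 of 5). The part of these cells, and of the B cells themselves, in the histone values was not tested.

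The clustered histone genes that are no members were nearly all listed at low values, and most were higher in 4-OHT. Of 55 such rows, 31 were below 1 FPKM in both conditions, 3 were listed at 0 in both and 2 at 0 in EtOH alone. Of the 50 rows above 0 in both, 44 were higher and 6 lower in 4-OHT by the authors' deposited log2 fold changes, which have no pseudocount. Their sum was 74.3 FPKM in 4-OHT and 54.2 FPKM in EtOH over all 55, and 46.7 FPKM in 4-OHT and 15.97 FPKM in EtOH without the 3 most abundant, Hist1h4i, Hist3h2a and Hist2h2be. Low rows of the whole table also leaned upward. Of the 36 clustered genes with a mean of 0.1 to 1 FPKM, 34 were higher and 26 at least 2-fold higher by the authors' deposited table, beside 71.1% and 48.7% of the 2516 rows of the table in that range.

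Every histone type held such rows, with the merged Hist1h1e and Hist1h2be row, which also holds an H2B gene, counted as H1. Of the genes above 0 in both, 11 of 12 for H4, 9 of 10 for H3, 11 of 13 for H2B, 9 of 11 for H2A and 4 of 4 for H1 were higher in 4-OHT. Hist1h4d, an H4 gene whose stem-loop is shown above, stood at 3.39 FPKM in 4-OHT and at 0.438 FPKM in EtOH, a log2 ratio of 1.61 with the pseudocount. Hist1h4f stood at 2.55 FPKM in 4-OHT and at 0.297 FPKM in EtOH. Hist1h4h (2.19 and 0.498 FPKM in 4-OHT and EtOH) and Hist2h4 (1.73 and 0.336 FPKM in 4-OHT and EtOH) were the other 2 that reached 2-fold with the pseudocount among rows whose mean reached 1 FPKM. These 4 encode histone H4, and they passed that minimum only through their 4-OHT values. Below it, the H2B genes Hist2h2bb and Hist1h2bn and the linker histone gene Hist1h1a also reached 2-fold with the pseudocount, at log2 ratios of 1.23, 1.12 and 1.07. Most of these loci are short: 35 of the 42 rows with a mean under 1 FPKM span fewer than 700 bases in the table, where the FPKM of a gene about as short as a sequenced fragment is unstable.

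The 3 most abundant clustered genes outside the members were on the lower side. Hist1h4i, an H4 gene, stood at 19.8 FPKM in 4-OHT and at 29.2 FPKM in EtOH (log2 ratio -0.53). Hist3h2a stood at 5.36 FPKM in 4-OHT and at 6.19 FPKM in EtOH (-0.18), and Hist2h2be at 2.40 FPKM in 4-OHT and 2.91 FPKM in EtOH (-0.20). With the members Hist1h1c and Hist1h2bc these were the only 5 clustered genes with a mean above 2 FPKM. Of the 5 transcripts, 4, all but that of Hist1h2bc, end with an AATAAA or ATTAAA signal in their last 50 bases. So do 14 of all 58 clustered genes with a transcript, but only 45 of the 58 transcripts go past the stop codon. Those that end at it have no annotated tail in which a signal could be found. Genes with a long and with a short tail past the stem-loop differed little at the median. The median of the mean FPKM was 0.774 for the 20 genes with a tail of at least 100 bases and 0.706 for the 16 with a shorter one. The first median is the value of the merged row of Hist1h1e and Hist1h2be, which counts for both genes. No gene with a shorter tail exceeded 2.55 FPKM.

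**Figure D4:**
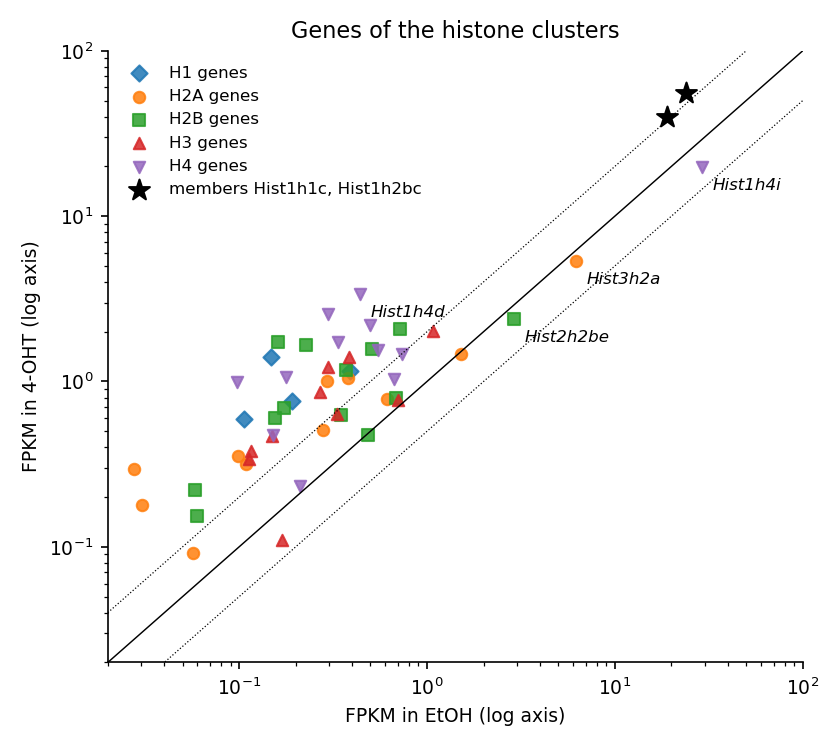
FPKM in 4-OHT (vertical) against EtOH (horizontal), both on log axes, for the 50 clustered histone rows above 0 in both conditions, by histone type, and for the members Hist1h1c and Hist1h2bc (stars); the solid line marks equal values and dotted lines 2-fold. Of the 50 rows, 44 lie above the solid line, while Hist1h4i, Hist3h2a and Hist2h2be lie below it.

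Messages for proteins that carry and exchange histones were mostly lower in 4-OHT. In the list of chaperones and exchange factors, 31 of 35 compared genes were lower and 4 higher, none by 2-fold, with a median of -0.52 against -0.07 for all rows. Npm1, a nucleolar histone chaperone, stood at 848 FPKM in 4-OHT and at 1385 FPKM in EtOH, and Ssrp1, a subunit of the FACT chaperone, at 209 FPKM in 4-OHT and 302 FPKM in EtOH. The lowest ratio was that of Anp32e, which takes H2A.Z off chromatin, at 53.4 FPKM in 4-OHT and 106 FPKM in EtOH (-0.98). Ep400, Ruvbl1 and Ruvbl2, subunits of complexes that insert H2A.Z, were at -0.72, -0.58 and -0.56, and Vps72, which binds H2A.Z in them, was at -0.00. Also in the list, Yeats4, Ino80 and Dmap1 were at -0.40, -0.28 and -0.16. Znhit1 and Actr5, the latter in a row shared with another gene name, were higher, both at 0.12. Anp32e and the H2A.Z genes were thus lower together, but the exchange factors were not all lower.

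Of the 6 partners of H3.3 listed, 5 were on the lower side and Cabin1 was higher. Hira, which deposits H3.3 at active genes, stood at 16.5 FPKM in 4-OHT and at 24.4 FPKM in EtOH (-0.53). Its partners Ubn1 and Ubn2 were at -0.09 and -0.35, and Cabin1, another partner, had the highest ratio of the chaperone list, at 0.33. Daxx and Atrx, which deposit H3.3 at repeats, were at -0.13 and -0.35. Chaf1a and Chaf1b, subunits of the chaperone that acts at replication forks, were at -0.61 and -0.45. Hjurp, which loads the centromere variant and shares its row with another gene name, was at -0.56, close to Cenpa.

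Genes that process stem-loop messages were lower in 14 of 15 compared, beside 55.1% of all compared rows. None reached 2-fold, and their median was -0.36. Slbp, which binds the stem-loop and is made in S phase, had the lowest ratio, at 65.5 FPKM in 4-OHT and 116 FPKM in EtOH (-0.81). Srrt, a cap-complex protein, stood at 82.0 FPKM in 4-OHT and at 112.5 FPKM in EtOH. Lsm10, of the U7 particle that cuts these messages, was near equal at 15.6 FPKM in 4-OHT and 14.9 FPKM in EtOH. Npat, which activates the clustered genes in S phase, was at -0.36. Slbp and the low clustered genes therefore differed in opposite directions.

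Genes of H2A.X signalling were lower in 16 of 16 compared, beside 55.1% of all compared rows. Their median was -0.48, and none reached 2-fold. Baz1b, a kinase for H2A.X, stood at 65.0 FPKM in 4-OHT and at 109 FPKM in EtOH (-0.74), and the spindle protein gene Tpx2, which is also a cell cycle gene, at 48.7 FPKM in 4-OHT and 98.2 FPKM in EtOH. Atm, the kinase that marks H2A.X at breaks, was at -0.91, whereas Nbn, of the complex that senses breaks, was at -0.08. Each of these ratios lay above that of H2afx. Of the high mobility group genes and Parp1, whose products bind nucleosomes and linker DNA, 8 of 8 were lower, with a median of -0.71. Among them 2 were at least 2-fold lower, a size reached downward by 2.58% of compared rows. Hmgb1 stood at 232 FPKM in 4-OHT and at 486 FPKM in EtOH (-1.06) and Hmgb2 at 165.5 FPKM in 4-OHT and 282 FPKM in EtOH, while Hmgn2 was nearest to equal, at -0.36.

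The 22 cell cycle genes set beside the members were all lower, with a median of -0.75, and 3 of these reached 2-fold. Of all compared rows, 55.1% were lower and 2.58% at least 2-fold lower. Pcna, the replication clamp, stood at 232 FPKM in 4-OHT and at 313 FPKM in EtOH (-0.43), Mcm7, of the replicative helicase, at 62.7 FPKM in 4-OHT and 142 FPKM in EtOH (-1.17), and Top2a was lowest, at -1.18. Aurka was nearest to equal, at -0.01. The ratios of H2afz and H2afv lay within the range of these genes, and that of H2afx lay just below it, beside Top2a. The ratios of H3f3a, H3f3b, H1f0 and H1fx were nearer to 0 than the cell cycle median, as were, by less, those of H2afy and H2afz. H2afx, H2afz and H2afv and the cell cycle genes were thus lower in the condition in which the B cell markers were also lower.

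**Figure D5:**
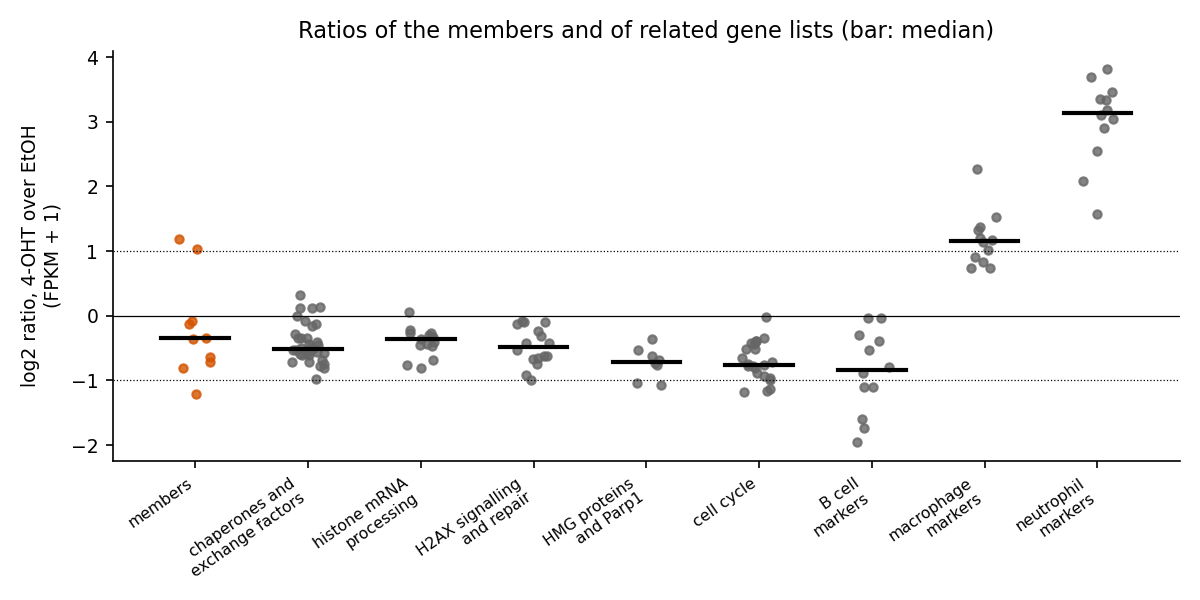
Log2 ratio of 4-OHT over EtOH (FPKM + 1) for each compared gene (points) of the members and of related lists, with the list median as a bar and dotted lines at 2-fold. Among the lists plotted, the medians run from -0.84 for B cell markers and -0.75 for cell cycle genes to 3.14 for neutrophil markers, and the members span -1.21 to 1.18.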

How the data were processed

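The deposited table holds FPKM values that the authors computed, 1 per gene and condition, each for 3 libraries. The labels do not say how the libraries were combined or scaled. The submitters' processing notes name CASAVA, TopHat2 2.0.9, Cufflinks 2.1.1 and the mouse build mm9. The authors also deposited a log2 fold change, which matched the FPKM ratio within 0.01 in all 15756 rows above 0 in both. Columns were assigned by the condition names in the table.

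A row was compared when its mean reached 1 FPKM and neither value was 0; the pseudocount was 1 FPKM. With 1 value per condition, no test across libraries could be run. The error of the ratio was not tested. Coordinates of genes are loci of the table on mm9, with 1 added to the start; sequences come from GENCODE M21 (GRCm38; the longest protein-coding transcript) and RefSeq (GRCm38.p6), and 8 of 10 members matched a promoter.

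The members, lists and motifs were chosen with earlier results of these data known. From each list the text names the 2 most abundant compared genes, the highest and the lowest ratio, and every other histone gene at least 2-fold different; other genes were named after their values were seen. Scripts ran in Python 3.11.15 with pandas 2.3.3, numpy 2.4.6 and, for figures, matplotlib 3.10.9. Alternatives were 3 pseudocount settings, 2 filters, 3 scalings, 2 sets of rows left out, and H2afv left out of its set. S100a8, S100a9, Adgre1, Hba-a1, Hbb-b1, Mis18a and Srcap were not analysed here.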

Additional observations from a re-analysis of the deposited data

How the results depend on the processing

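Of 99 member values over 10 alternatives, 98 kept their direction and their side of 2-fold. The other was Hist1h1c, at 0.98 under median-of-ratios scaling. Many of the 98 were the same by construction, because changing the filter or leaving out rows cannot alter a member's ratio. Pseudocounts can alter its size but not its direction. Only the scalings could alter both, so the count of 98 overstates how far the ratios were tried. The H2afx ratio ran from -1.27 to -1.17, that of H2afz from -0.79 to -0.67, that of Hist1h2bc from 1.12 to 1.23 and that of H3f3a from -0.21 to -0.08. The ratio of H1fx ran from -0.40, under quantile normalization, to -0.06, and H1fx could not be compared with a minimum mean of 5 FPKM. The median of the members used by non-dividing cells ran from -0.33, also under quantile normalization, to -0.08. The median of the other histone genes, 0.55 over 15 compared, was -0.36 with a minimum of 5 FPKM, where the low clustered genes drop out. It was 1.01 by the fold changes in the authors' deposited table. Most of the higher rows among these 15 were below 1 FPKM in EtOH. They passed the minimum mean only through their 4-OHT values, so the median of 0.55 depends on the filter. The clustered rows higher in 4-OHT numbered 37 under quantile normalization and 43 or 44 otherwise. Pseudocounts and filters cannot change this count, and 43 arose where merged rows were left out. Over the whole table, 1124 rows were past 2-fold upward and 280 downward; a minimum of 5 FPKM left 700 upward, a 0.1 FPKM pseudocount gave 457 downward, and the authors' deposited table, with none, gave 482 downward. The median of all rows was 0.0099 with no filter. No paired analysis was possible because each condition has 1 pooled value; leaving out each library was not run for the same reason. Depth is unknown, so precision cannot be stated, and it is least for low values.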
